A study of Epimedium pubescens with 27 samples.

Results

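The NRT1/PTR FAMILY (NPF) comprised 138 of the 58645 genes in the deposited table for leaves of Epimedium pubescens, a medicinal herb of the barberry family. A gene was taken as a member when its description named the family, a rule that uses no expression value. In all 138 members the description is the name of the best protein match in Arabidopsis thaliana, and a name such as NPF2.13 is used below for that match and not for a proven function in E. pubescens. By subfamily there were 5 members of NPF1, 39 of NPF2, 10 of NPF3, 29 of NPF4, 19 of NPF5, 7 of NPF6, 5 of NPF7 and 24 of NPF8. The Pfam domain PF00854, which defines this transporter family, was annotated in 126 members. Genome annotation supplied 120 members, and the other 18 were models added by the authors' transcript assembly.

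The question was how leaf expression of this family differed between nitrate supplies and stages. One-year-old seedlings in sand and perlite received 0 mM nitrate (LN), 7.5 mM (MN) or 22.5 mM (HN), and leaves were taken 24, 36 and 48 days after the start of treatment (DAT), which are called S1, S2 and S3. Each of the 9 groups had 3 libraries, lettered A, B and C, which gave 27 libraries. According to the methods, nitrate came as potassium and calcium salts topped up with sodium nitrate, and calcium chloride and potassium sulfate balanced the ions, so nitrate cannot be told apart from the accompanying sodium, chloride and sulfate. All plants shared a pre-culture in dilute Hoagland solution. Nutrient solution was given at set intervals of days, so time since the last feed may differ between stages and cannot be told apart from stage. The methods also describe older leaves as chlorotic under LN and necrotic under HN at the last harvest, and they do not say which leaf position was used for RNA.

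Proteins of the NPF family are membrane carriers with a fold of the major facilitator type, and most that have been studied move their substrate together with protons. The family was named for nitrate and peptide transport, but its members in Arabidopsis also carry nitrite, abscisic acid, gibberellin, jasmonate, auxin, glucosinolates and other compounds. In leaves, NPF carriers are known for storing nitrate in the petiole, loading it into the phloem of older leaves and moving it to growing tissue, while other members act mainly in roots at uptake and xylem loading.

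Total counts on genes ranged from 13609959 to 18482851 per library (median 15390848). Markers of leaf mesophyll (90 genes) summed to between 40540 and 114700 FPKM (fragments per kilobase of gene, scaled to library size), whereas root Casparian strip genes (3 genes, 2 of them without a count) summed to at most 0.692 FPKM and senescence-specific proteases (30 genes, 25 without a count) to at most 0.486 FPKM, so the labelled tissue had its defining markers. The mesophyll sum was not even between treatments at S2. It was 104100 to 114700 FPKM in MN S2 libraries, against 51830 to 80040 FPKM in LN S2 and 46350 to 71000 FPKM in HN S2 libraries. At S1 and S3 the MN libraries overlapped with those of both other treatments. Whether this bears on the NPF differences at S2 was not tested. In 7 of the 9 groups 1 pair of libraries lay closer together than any pair of libraries from different groups. Replicates B and C made up the close pair of HN S1, HN S2, MN S1 and MN S2, and replicates A and B that of HN S3, LN S2 and LN S1. The biological coefficient of variation (BCV), the replicate spread that remains after counting noise, was 0.155 to 0.431 within these close pairs and 0.582 to 0.890 within the 20 other pairs of the same group. The methods call the 3 libraries of a group biological replicates, but the sources used here do not say how many plants each one came from, so p-values measure only the spread between these libraries. Counts of called members in the tests of all 27 libraries are also given with every close pair summed to 1 sample, which leaves 2 samples in the 7 groups.

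The family was led by few genes. Of the 138 members, 26 had no count in any library, 56 had a mean of at least 1 FPKM over the 27 libraries and 19 a mean of at least 10 FPKM. The 5 highest members held 44.2% of the family's summed mean FPKM and the 10 highest held 62.1%. The highest was Ebr03G069220 (mean 92.7 FPKM), a match to NPF4.6, which in Arabidopsis carries nitrate at low affinity and imports abscisic acid. It was followed by the NPF2.13 match Ebr03G061500 (85.1 FPKM). NPF2 and NPF5 were the subfamilies with the highest summed level (25.0% and 23.9% of the family), while NPF7 held 1.19%.

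Members often lay side by side in the genome. Joining neighbours no more than 1 Mb apart gave 12 runs of at least 3 members, which held 64 of the 138. Coordinates are those of the deposited table for the E. pubescens genome, whose build name the sources used here do not give. The largest run had 9 members with NPF2.3, NPF2.6 or NPF2.7 names on chromosome 1 (431335452 to 433104406). Another held 8 NPF3.1 matches on chromosome 2 (353600540 to 354175813), and one more 8 matches to NPF2.11, NPF2.12 or NPF2.13 on chromosome 3 (501882216 to 502838079). Reads of closely similar neighbours may have been shared or lost in counting, so a value for a gene in a run is uncertain to that extent. In addition 9 members overlapped another gene model, among them an NPF2.7 match (4 models) and an NPF2.3 match (1 model) described below, and whether the counting used strand is not stated.

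Summed over all members, the family averaged 802 ± 153 FPKM in HN S1 and 752 ± 84.4 FPKM in LN S1 leaves, against 636 ± 9.68 FPKM in MN S1 leaves (SD, n = 3 each). At S2 the sum was 872 ± 55.0 FPKM in HN leaves and 737 ± 62.0 FPKM in MN leaves, and every HN library lay above every MN library at both stages, as did every LN library at S1. At S3 the sums overlapped, at 665 ± 43.2 FPKM in HN leaves and 717 ± 141 FPKM in MN leaves. The lack of overlap between HN and MN depended on Ebr03G069220, since without that member their libraries overlapped at every stage. Most of the difference in means did not. The ratio of HN to MN means was 1.20 at S1 and 1.15 at S2 without Ebr03G069220, against 1.26 and 1.18 with it. The LN S1 libraries stayed above MN S1 without it, at 592 to 792 FPKM against 542 to 557 FPKM.

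The subfamilies moved apart from one another. NPF4 summed to 167 ± 8.75 FPKM in HN S2 leaves and 77.6 ± 6.74 FPKM in MN S2 leaves, a ratio of 2.15, and to 166 ± 57.4 FPKM in HN S3 leaves and 76.2 ± 24.8 FPKM in MN S3 leaves, a ratio of 2.18. NPF3 stood at 71.9 ± 19.6 FPKM in LN S2 and 75.3 ± 22.7 FPKM in HN S2 leaves, against 27.03 ± 4.12 FPKM in MN S2 leaves, and neither range overlapped that of MN. NPF2 at S3 summed to 107 ± 14.8 FPKM in LN and 125 ± 12.2 FPKM in HN leaves, against 237 ± 77.8 FPKM in MN leaves, without overlap. This rested on its highest member, Ebr03G061500, since without it the sums overlapped and turned the other way, with 73.4 ± 33.7 FPKM in LN and 82.7 ± 2.75 FPKM in HN leaves, against 66.3 ± 59.9 FPKM in MN leaves. Without Ebr03G069220 every HN library still lay above every MN library for NPF4 at S2 and S3, at ratios of 4.68 and 4.199. In HN S2 leaves most of this remainder was 1 gene, the NPF4.5 match Ebr01G016020, with a mean of 62.1 of the 67.9 FPKM left. Without the NPF3.1 match Ebr0G011500 the NPF3 sums of LN and MN overlapped at S2, and those of HN and MN did not. NPF1, in contrast, stayed between group means of 22.0 and 29.5 FPKM, nearly all of it from the match Ebr02G065380 to NPF1.1, which in Arabidopsis helps to move nitrate through the phloem toward growing leaves.

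**Figure D1:**
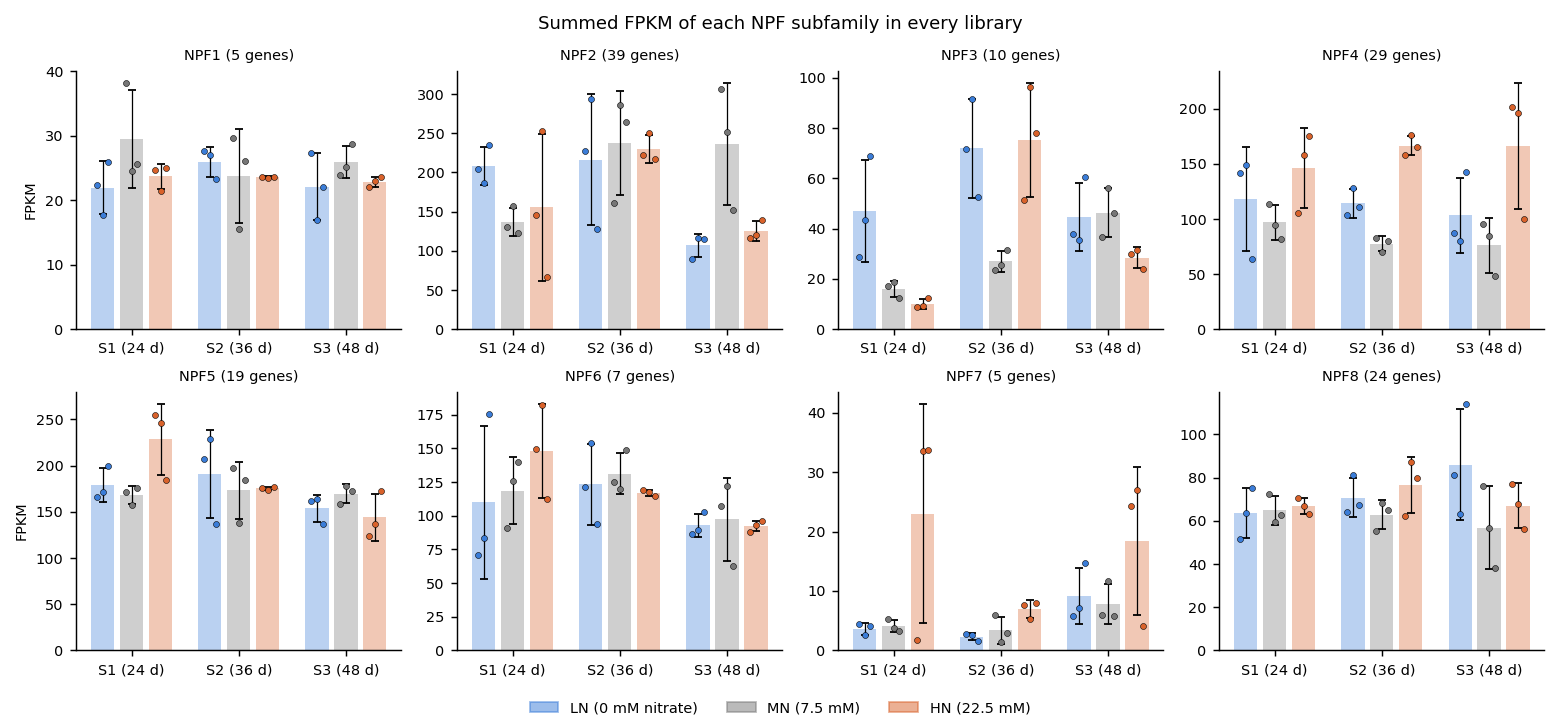
Summed FPKM of the 8 NPF subfamilies in each library (points), with the mean (bar) and SD (line) of 3 libraries per group, at 24, 36 and 48 days for LN, MN and HN. NPF4 under HN stands above MN at S2 and S3 (ratios of means 2.15 and 2.18), and NPF2 at S3 is highest under MN (237 FPKM, or 66.3 FPKM and the lowest of the 3 treatments without Ebr03G061500).

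The filter on low counts kept 83 of the 138 members in the fit of all 27 libraries. Of the other 55, 26 had no count and 29 had too few. Calls required a p below 0.05 after Benjamini-Hochberg adjustment over all genes tested and, in comparisons of 2 conditions, a log2 fold change of 1 or more in size. Any difference among the 9 groups was called for 23 of 83 members (27.7%), against 15.9% of all genes tested, and by DESeq2 for 36 members (background 24.0%). Here and below, DESeq2 backgrounds cover more genes than those of edgeR (44302 against 28593 in this test). They do not share the low-count filter that left 83 members. An unadjusted edgeR p below 0.05 was reached by 37 members (44.6%), against 38.2% of all genes. Without HN S2 replicate B or HN S3 replicate B 11 members were called, without HN S3 replicate A 12, without HN S2 replicate C 13 and without MN S2 replicate C 15. The same test with close pairs summed called 0 members, and then also only 0.0135% of all genes.

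For HN vs MN averaged over the stages, edgeR called 6 of 83 members, of which 4 were higher and 2 lower, against 2.48% of all genes called (1.57% higher and 0.916% lower). For HN vs LN it called 4 members, 2 in each direction (background 1.03%, of which 0.444% higher and 0.584% lower). For LN vs MN it called 1 member (background 0.14%). Between stages, 16 members differed for S2 vs S1 averaged over the treatments, 13 of them higher, which is 19.3% of members against 10.2% of all genes (6.26% higher and 3.99% lower). For S3 vs S1 there were 4 calls, 3 of them higher (background 2.18%, of which 1.35% higher and 0.832% lower). The treatment by stage interaction was called for 1 member, with a background of 0.175%. Leaving out 1 library moved these counts to between 3 and 8 for HN vs MN, 1 and 6 for HN vs LN, 0 and 1 for LN vs MN, 11 and 17 for S2 vs S1, 0 and 5 for S3 vs S1 and 0 and 3 for the interaction.

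DESeq2 called 12 members for HN vs MN (background 4.28%), 6 for HN vs LN (2.85%), 2 for LN vs MN (1.37%), 18 for S2 vs S1 (8.93%), 8 for S3 vs S1 (4.21%) and 9 for the interaction (3.8%). With close pairs summed, the tests of all 27 libraries other than S2 vs S1 each called 0 members and at most 0.0203% of all genes. For S2 vs S1, 2 members were still called (background 0.321%). These 2 were the NPF4.5 match Ebr01G016020 and the NPF2.13 match Ebr03G061510, with adjusted p of 0.0474 and 0.0412 by edgeR. Over all tests 26 members were called at least once, with 7 each from NPF2 and NPF3, 5 from NPF5, 3 from NPF4, 2 from NPF8 and 1 each from NPF6 and NPF7. NPF1 had no called member. The highest group mean of a tested member fell in an HN group for 56 of 83 members (67.5%), against 41.2% of all genes. By group these were 23 in HN S1 (27.7%, against 12.5% of all genes), 18 in HN S2 (21.7%, against 15.2%) and 15 in HN S3 (18.1%, against 13.5%). Such a mean can rest on 1 library or 1 close pair. Neighbours in a run are not independent, and members with few counts elsewhere could pass the filter through their high libraries. These shares had no test.

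**Figure D2:**
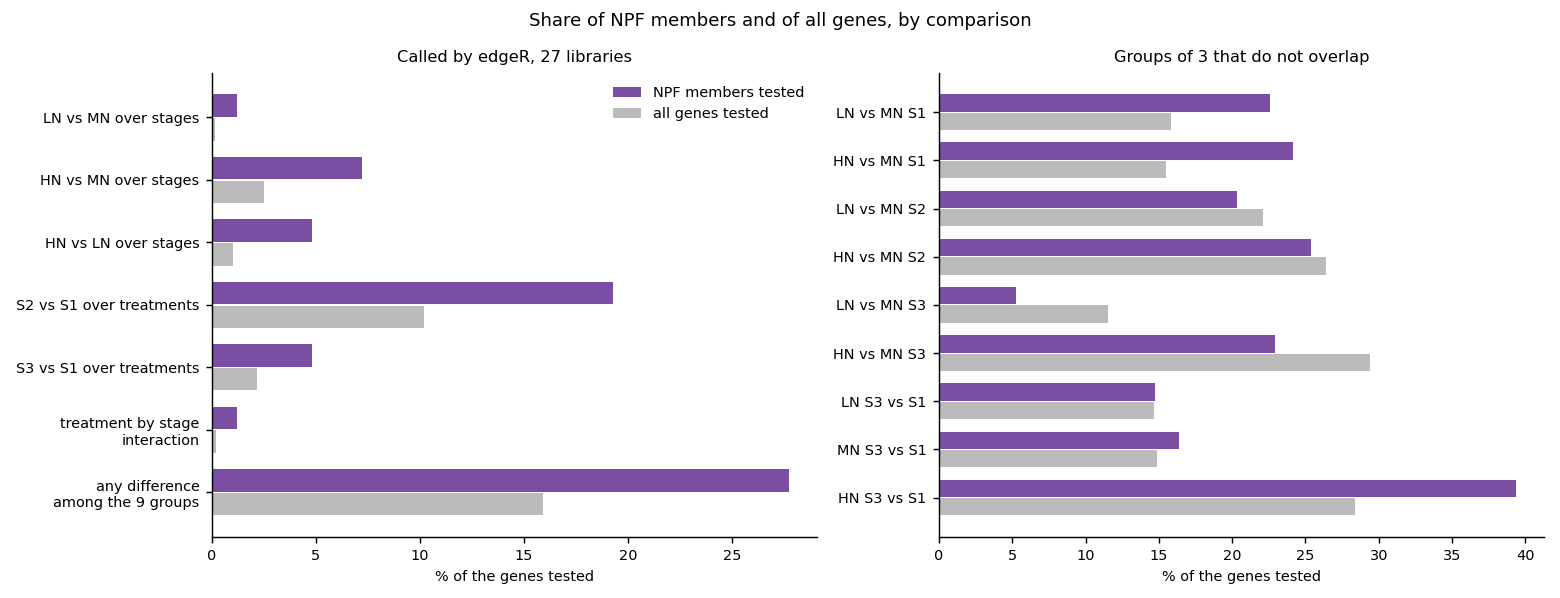
Percent of tested NPF members (purple) and of all tested genes (grey) called by edgeR in the tests of all 27 libraries (left), and percent whose 3 libraries per group do not overlap in the comparisons of 3 against 3 libraries (right). The member share is above the share of all genes in each test on the left, for example 27.7% against 15.9% for any difference, and on the right it is below in HN vs MN S2 (25.4% against 26.4%), LN vs MN S2 (20.3% against 22.1%), HN vs MN S3 (23.0% against 29.4%) and LN vs MN S3 (5.26% against 11.5%).

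**Figure D3:**
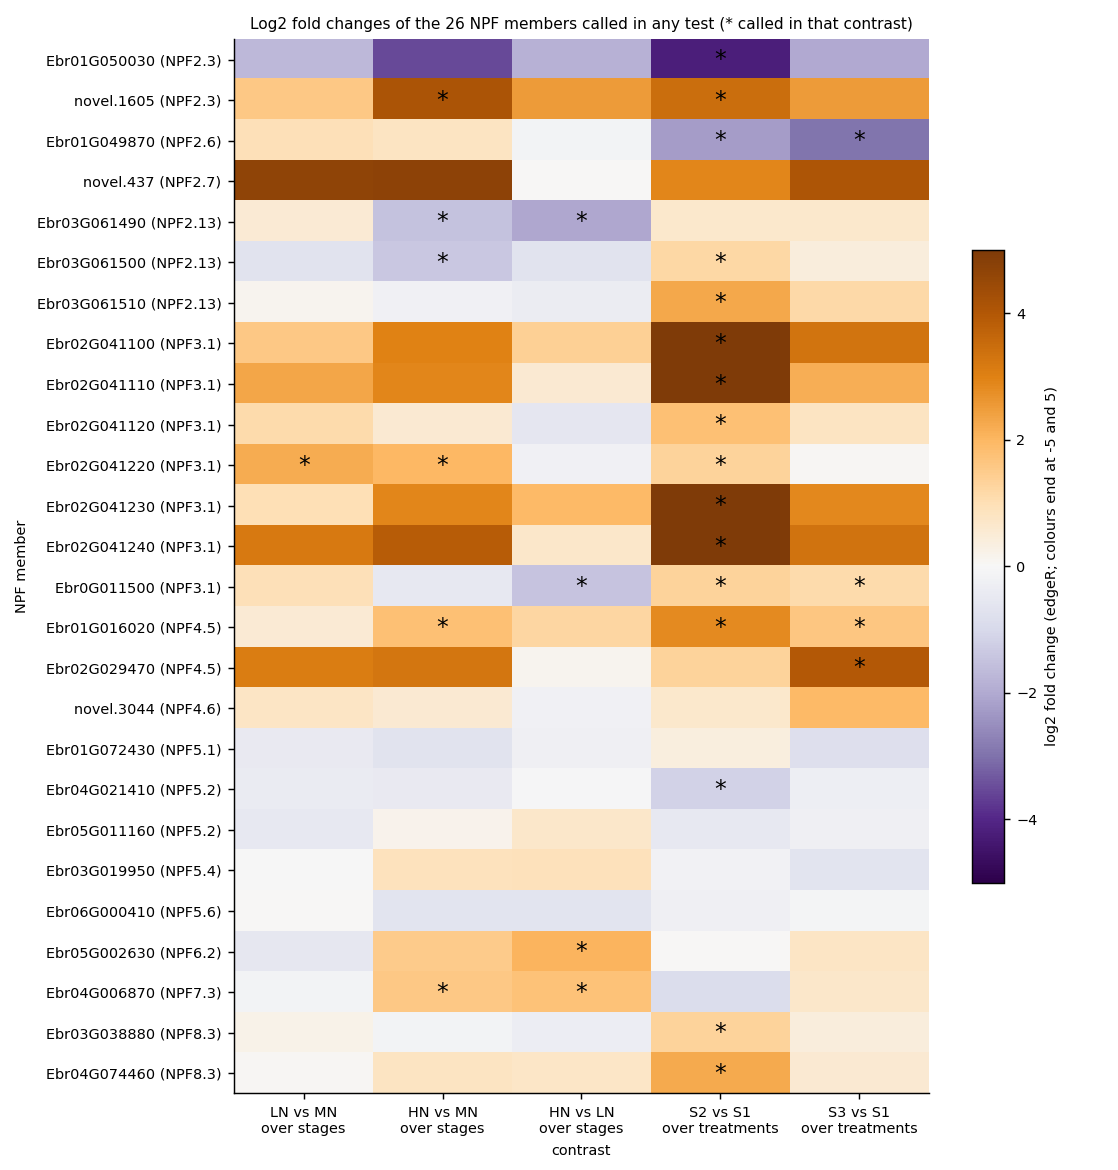
edgeR log2 fold changes (colour) of the 26 members called in any test, for 5 contrasts of all 27 libraries, with an asterisk where the member was called in that contrast and gene IDs as deposited. Most asterisks stand under S2 vs S1 (16), where 13 are orange (higher at S2) and 3 purple. Fold changes of members with few counts in a group depend on the prior count of the fit.

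The NPF2.13 matches form 3 expressed neighbours on chromosome 3. In Arabidopsis NPF2.13 (also called NRT1.7) loads nitrate into the phloem of older leaves and so moves it to younger ones. Ebr03G061500 (chromosome 3, 502619901 to 502624327) was the most abundant of them. At S1 it measured 9.81, 11.5 and 22.0 FPKM in HN libraries A, B and C, against 121, 78.5 and 120 FPKM in LN and 99.7, 60.8 and 49.3 FPKM in MN libraries. At S2 the groups lay together, with 104, 150 and 124.5 FPKM in HN, 106, 95.0 and 62.3 FPKM in LN, and 96.7, 131 and 117 FPKM in MN libraries. At S3 it measured 30.9, 38.25 and 59.0 FPKM in HN and 54.8, 29.99 and 15.7 FPKM in LN libraries, against 277, 116 and 118 FPKM in MN libraries. HN libraries thus lay below all MN libraries at S1 and S3 but not at S2, and LN libraries lay below MN only at S3.

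Ebr03G061500 was the 1 member called for the treatment by stage interaction (edgeR adjusted p = 0.0228, a test that called 0 of all genes when close pairs were summed). That call was lost without LN S1 replicate A (adjusted p = 0.0552), HN S1 replicate B (0.0581), MN S2 replicate C (0.0629), HN S2 replicate B (0.0517) or HN S2 replicate C (0.0537). Over the stages the gene fell by 1.38 ± 0.25 on the log2 scale (SE) in HN vs MN (adjusted p = 0.00827), which was called in all 27 fits that left out 1 library but not with close pairs summed (adjusted p = 0.260). It rose by 1.21 ± 0.25 in S2 vs S1 over the treatments (adjusted p = 0.00339), but not under each of them. Its summed counts went from 1396 to 14488 in HN, from 6770 to 11377 in MN and from 11593 down to 9572 in LN libraries. For HN vs MN at S1 alone its log2 fold change was -2.31 ± 0.42 with an adjusted p of 0.118.

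Its neighbour Ebr03G061490 lies at 502353393 to 502357637. It measured 3.63, 3.31 and 3.73 FPKM in HN S1 libraries, against 13.7, 13.7 and 32.6 FPKM in LN S1 and 7.82, 13.2 and 18.2 FPKM in MN S1 libraries. At S3 it measured 2.75, 3.02 and 8.66 FPKM in HN libraries, against 8.78, 9.18 and 79.8 FPKM in LN and 11.1, 38.5 and 18.0 FPKM in MN libraries. Again the HN libraries were the lowest at both stages, without overlap with either other treatment at these stages. The gene fell by 2.03 ± 0.40 (log2, SE) in HN vs LN (adjusted p = 0.0183) and by 1.51 ± 0.40 in HN vs MN (adjusted p = 0.0386). The first call was lost without HN S3 replicate B (adjusted p = 0.0531), and the second was lost without any 1 of 14 libraries (adjusted p up to 0.0845).

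Ebr03G061510 (502720823 to 502727549) went the same way with stage under each treatment. It measured 7.79, 8.80 and 17.3 FPKM in LN S1, 4.86, 6.91 and 6.32 FPKM in MN S1 and 1.79, 2.47 and 6.203 FPKM in HN S1 libraries. At S2 the values were 29.2, 42.15 and 17.0 FPKM in LN, 11.1, 83.9 and 15.7 FPKM in MN and 24.9, 28.7 and 23.0 FPKM in HN libraries. The S2 libraries overlapped with S1 only within LN, by a narrow margin, and the gene rose by 2.30 ± 0.34 in S2 vs S1 (adjusted p = 0.000420, called without any 1 library). It was not called for any treatment contrast. The remaining NPF2.13 matches, Ebr03G061390 and Ebr03G061460, had no counts.

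The matches to the nitrate carriers NPF6.2 and NPF7.3 had their highest group mean in HN S1 leaves, where a close pair of libraries was high. NPF6.2 (NRT1.4) takes part in storing nitrate in the Arabidopsis petiole, and NPF7.3 (NRT1.5) is best known for loading nitrate into the root xylem. The NPF6.2 match Ebr05G002630 (chromosome 5, 12845946 to 12848481) measured 1.39, 30.3 and 50.05 FPKM in HN S1 libraries A, B and C, against 2.18, 4.35 and 0.785 FPKM in LN S1 and 2.79, 0.410 and 1.49 FPKM in MN S1 libraries. Replicates B and C, a close pair, were therefore high and replicate A was at the level of the other treatments.

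At S2 the pattern of Ebr05G002630 was different. It measured 2.69, 10.8 and 11.6 FPKM in HN S2 and 1.87, 0.902 and 2.11 FPKM in LN S2 libraries, against 7.54, 8.01 and 7.04 FPKM in MN S2 libraries. All LN libraries lay below all MN libraries at this stage, with a log2 fold change of -2.20 ± 0.37 (SE), but the adjusted p of 0.137 missed the threshold. HN and MN libraries overlapped at S2. At S3 the treatments lay closer together, with 787 counts over the HN, 641 over the LN and 665 over the MN libraries. Over the stages the gene rose by 2.04 ± 0.50 in HN vs LN (adjusted p = 0.0417, and 0.418 with close pairs summed), a call lost without any 1 of 18 libraries (adjusted p up to 0.0982). The NPF6.2 matches Ebr02G053880, Ebr02G053890 and Ebr05G021250 never exceeded 0.194 FPKM.

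The NPF7.3 match Ebr04G006870 (chromosome 4, 45423269 to 45428020) measured 1.70, 33.6 and 33.6 FPKM in HN S1 libraries, against 4.43, 2.53 and 4.05 FPKM in LN S1 and 5.21, 3.79 and 3.22 FPKM in MN S1 libraries. At S3 it measured 24.3, 26.98 and 3.99 FPKM in HN libraries, against 5.81, 7.05 and 14.6 FPKM in LN and 5.97, 11.6 and 5.85 FPKM in MN libraries. As with NPF6.2, the high values at S1 were those of the close pair B and C, and at S3 those of the close pair A and B, while the remaining HN library was the lowest of its stage. The gene rose by 1.59 ± 0.43 in HN vs MN (adjusted p = 0.0424) and by 1.74 ± 0.43 in HN vs LN (adjusted p = 0.0448), calls lost without any 1 of 18 and of 20 libraries and with close pairs summed (adjusted p = 0.387 and 0.452). Another NPF7.3 match, Ebr05G058220, had no counts, and no member matched NPF7.2.

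The abundant NPF6 genes differed less between group means, although single libraries varied. The ratio of the highest to the lowest group mean was 2.43 for Ebr05G055420 and 2.03 for Ebr05G002410. It was 17.4 for Ebr05G002630 and 10.1 for Ebr04G006870. Ebr05G055420 (chromosome 5, 407156018 to 407161763) matches NPF6.3 (NRT1.1), the nitrate carrier and sensor of Arabidopsis, and it ranged over all libraries from 16.8 to 76.4 FPKM (median 42.1). Its log2 fold change was 0.32 ± 0.27 (SE) in HN vs MN (adjusted p = 0.528) and -0.11 ± 0.27 in LN vs MN (adjusted p = 0.960), and the test of any difference gave an adjusted p of 0.400. The NPF6.1 match Ebr05G002410, the highest member of NPF6, ranged over all libraries from 20.5 to 99.98 FPKM (median 62.1). It measured 54.1, 47.0 and 44.9 FPKM in HN S2 libraries, against 86.7, 55.6 and 66.8 FPKM in MN S2 libraries. These groups did not overlap, but no test called the gene (adjusted p for any difference 0.521).

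**Figure D4:**
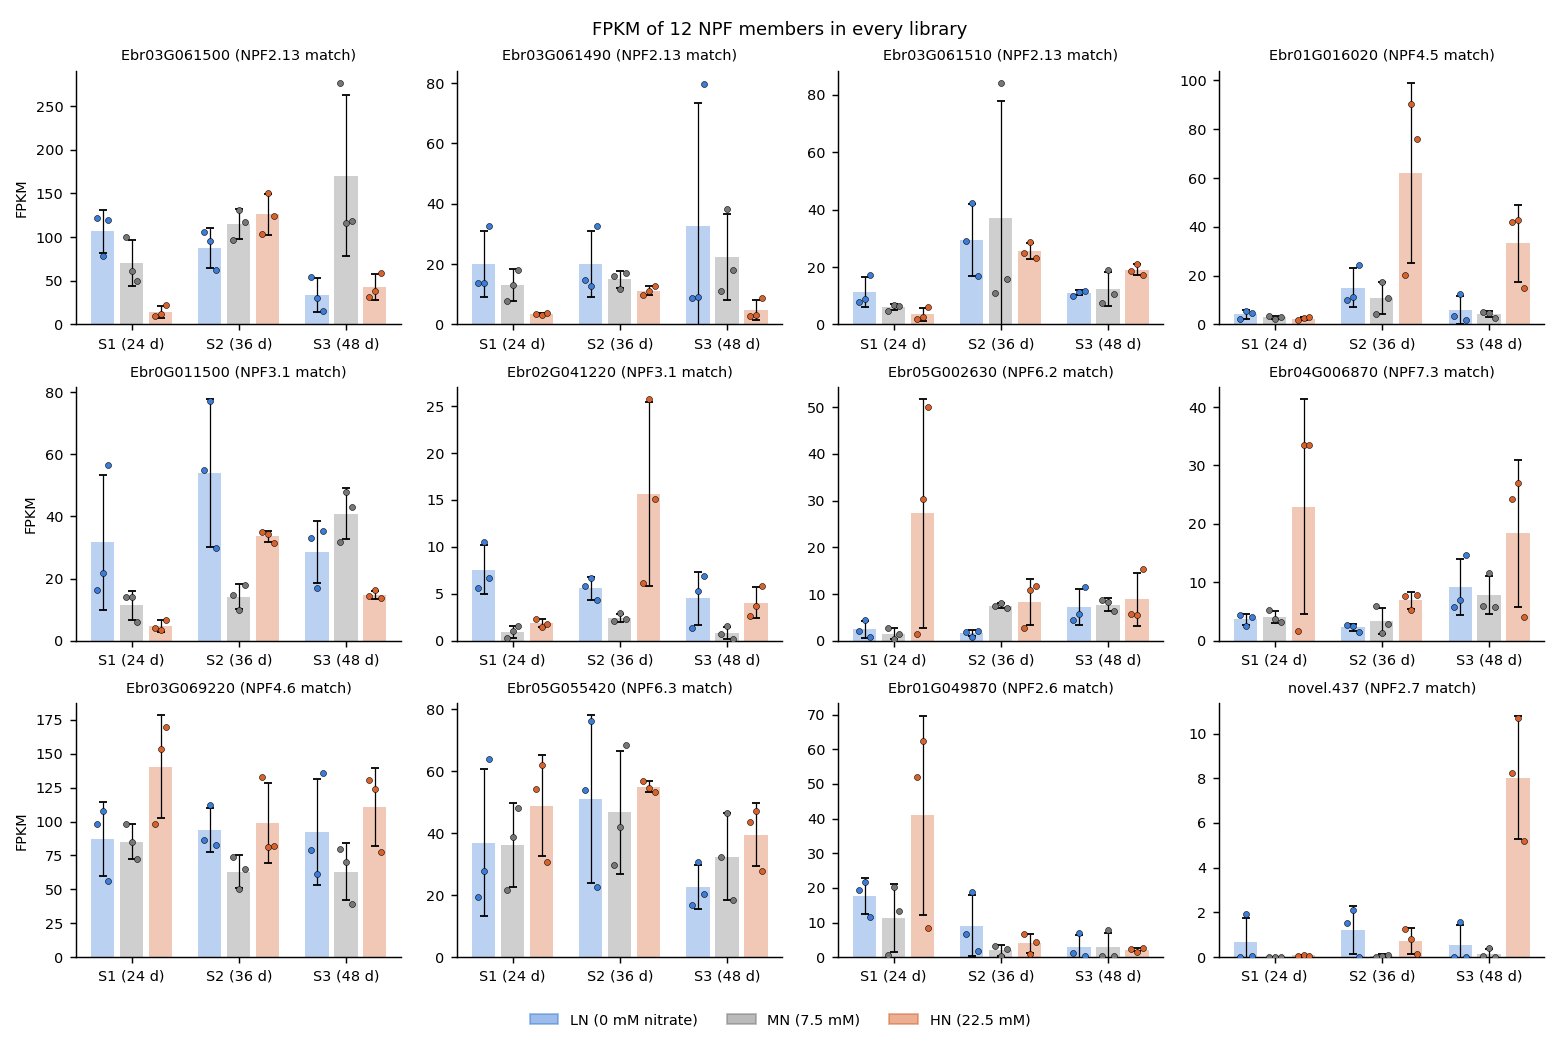
FPKM of 12 members in each library (points; replicates A, B and C from left to right), with mean (bar) and SD (line) of 3 libraries, at 24, 36 and 48 days for LN, MN and HN. The NPF2.13 match Ebr03G061500 is low under HN at S1 (9.81 to 22.0 FPKM), and the NPF6.2 and NPF7.3 matches are high in 2 of the 3 HN S1 libraries.

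NPF3.1 matches made up 7 of the 16 members called for S2 vs S1. In Arabidopsis NPF3.1 carries gibberellin and has also been linked to nitrate and nitrite transport. Of the 8 NPF3.1 matches in the run on chromosome 2, 6 had counts, and all 6 rose in S2 vs S1. Ebr02G041100, Ebr02G041110 and Ebr02G041120 lie on the minus strand, and Ebr02G041220, Ebr02G041230 and Ebr02G041240 on the plus strand some distance on. Their sequence similarity was not computed, and reads may have been shared between similar neighbours, so the genes are uncertain as separate measurements.

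The 4 genes of low level were nearly silent at S1. Over the 9 S1 libraries together Ebr02G041100 had 2 counts, Ebr02G041110 had 1, Ebr02G041230 had 2 and Ebr02G041240 had 5. Over the 9 S2 libraries the same genes had 312, 98, 195 and 489 counts, of which HN libraries held 214, 54, 174 and 443. At S3 they had 106, 24, 49 and 115 counts, again mostly in HN libraries. With so few counts at S1 no fold is given, and adjusted p for S2 vs S1 ranged from 0.00447 for Ebr02G041110 to 0.0198 for Ebr02G041240. The calls of Ebr02G041230 and Ebr02G041240 were lost without MN S2 replicate B (adjusted p = 1.0 and 0.0726).

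Ebr02G041220 (354159878 to 354162306) was higher than in MN under both other supplies. It measured 5.59, 10.5 and 6.71 FPKM in LN S1 and 2.37, 1.52 and 1.76 FPKM in HN S1, against 0.266, 1.06 and 1.57 FPKM in MN S1 libraries. At S2 it measured 5.83, 6.66 and 4.30 FPKM in LN and 6.17, 25.8 and 15.1 FPKM in HN, against 2.08, 2.93 and 2.31 FPKM in MN libraries. At S3 it measured 1.41, 5.27 and 6.86 FPKM in LN and 2.63, 3.73 and 5.86 FPKM in HN, against 0.753, 1.53 and 0.202 FPKM in MN libraries. All LN libraries lay above MN at S1, MN libraries were the lowest at S2, and all HN libraries lay above them at S3 as well, while LN and MN overlapped there.

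Over the stages Ebr02G041220 rose by 1.97 ± 0.39 on the log2 scale (SE) in HN vs MN (adjusted p = 0.0114, called without any 1 library) and by 2.21 ± 0.39 in LN vs MN (adjusted p = 0.0323). The LN call, the only member called in that contrast, was lost without any 1 of 9 libraries (adjusted p up to 0.0785), and with close pairs summed the adjusted p was 0.260 for HN vs MN and 0.622 for LN vs MN. Both contrasts use the same MN libraries. The gene also rose by 1.33 ± 0.38 in S2 vs S1 (adjusted p = 0.0197), a call lost without HN S2 replicate B (adjusted p = 0.0565).

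The most abundant NPF3.1 match, Ebr0G011500, lies on an unplaced contig (95985 to 99345). It measured 16.5, 21.9 and 56.5 FPKM in LN S1, 14.1, 14.2 and 5.93 FPKM in MN S1 and 4.13, 3.41 and 6.85 FPKM in HN S1 libraries. At S2 it measured 35.0, 34.3 and 31.6 FPKM in HN and 55.0, 77.3 and 29.9 FPKM in LN, against 14.6, 9.92 and 18.1 FPKM in MN libraries. At S3 the order turned, with 14.4, 16.3 and 13.7 FPKM in HN and 33.2, 17.0 and 35.3 FPKM in LN, against 31.8, 47.9 and 43.0 FPKM in MN libraries. Every HN library was above MN at S2 and below MN at S3.

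Averaged over the stages Ebr0G011500 fell by 1.46 ± 0.25 (log2, SE) in HN vs LN, with an adjusted p of 0.00871 and a call in all 27 fits that left out 1 library. With close pairs summed the adjusted p was 0.1896. It rose by 1.32 ± 0.25 in S2 vs S1 (adjusted p = 0.00224) and by 1.13 ± 0.25 in S3 vs S1 (adjusted p = 0.0209), the last call lost without HN S3 replicate B (adjusted p = 0.05035).

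**Figure D5:**
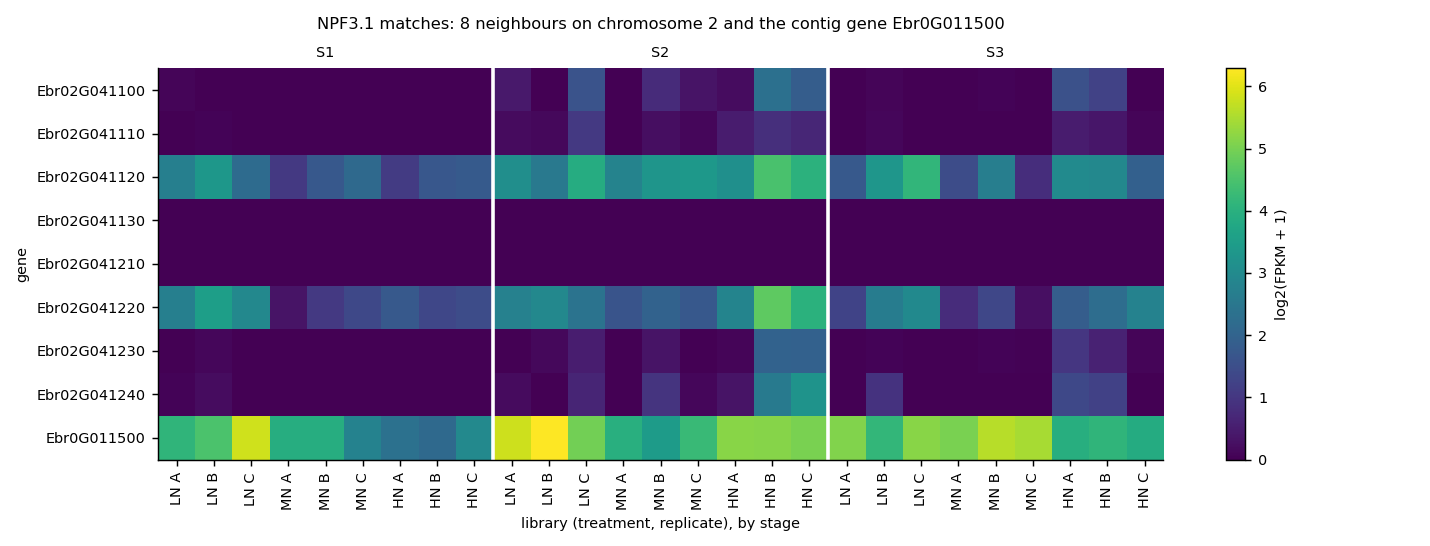
Level of the NPF3.1 matches, as log2(FPKM + 1) (colour), in each of the 27 libraries ordered by stage and treatment, for the 8 neighbours on chromosome 2 and the contig gene Ebr0G011500. Ebr02G041130 and Ebr02G041210 have no counts, and Ebr02G041100, Ebr02G041110, Ebr02G041230 and Ebr02G041240 appear mainly in S2 libraries and in HN S3 libraries A and B.

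In NPF4 the NPF4.5 match Ebr01G016020 (chromosome 1, 140325975 to 140329199) had the smallest p of all members for any difference among the groups (edgeR adjusted p = 0.000724). In Arabidopsis NPF4.5 (AIT2) has been found to import abscisic acid when expressed in yeast. The gene was low everywhere at S1, between 1.85 and 5.61 FPKM. At S2 it measured 10.1, 11.2 and 24.2 FPKM in LN, 4.45, 17.3 and 10.96 FPKM in MN and 20.2, 90.2 and 75.9 FPKM in HN libraries. At S3 it measured 42.1, 42.8 and 14.9 FPKM in HN libraries, against 3.58, 12.3 and 1.97 FPKM in LN and 5.15, 4.66 and 2.74 FPKM in MN libraries. Every HN library was above every MN library at S2 and S3, and replicates B and C at S2 and A and B at S3, both close pairs, were the highest.

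Ebr01G016020 rose by 2.83 ± 0.38 on the log2 scale (SE) in S2 vs S1 (adjusted p = 0.000255) and by 1.76 ± 0.37 in HN vs MN over the stages (adjusted p = 0.0166). Both calls held without any 1 library, and the second was lost with close pairs summed (adjusted p = 0.278). It rose by 1.62 ± 0.37 in S3 vs S1 (adjusted p = 0.0246), a call lost without LN S1 replicate A (0.0585), MN S1 replicate B (0.0607), LN S3 replicate B (0.0580), HN S3 replicate A (0.0560) or HN S3 replicate B (0.0591).

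Genes of sieve elements, the conducting cells of the phloem, were also low at S1 and high in HN libraries later. Their sum and Ebr01G016020 were lowest in the same library of HN S2 (replicate A) and HN S3 (replicate C). Both were highest in the same library of MN S2 (replicate B), LN S2 (replicate C) and LN S3 (replicate B), but not of MN S3. The levels differed, since the sum in MN S2 replicate B was as high as in HN S2 replicate B, where Ebr01G016020 was far higher. The 5 sieve element occlusion genes, all with counts, summed to 13.8, 76.7 and 79.4 FPKM in HN S2 and 3.55, 1.88 and 12.98 FPKM in LN S2 libraries, against 1.24, 78.5 and 12.2 FPKM in MN S2 libraries. At S3 they summed to 63.7, 60.2 and 29.8 FPKM in HN and 1.08, 33.5 and 2.65 FPKM in LN libraries, against 0.786, 3.12 and 0.838 FPKM in MN libraries. At S1 no library exceeded 8.65 FPKM. Of these 5 genes 4 were tested, and edgeR called 1 as higher in HN vs MN and 2 as higher in S2 vs S1 over the treatments, and 0 in either test with close pairs summed. Their part in the NPF results was not tested, and in bulk leaf fewer cells of a type and less RNA per cell cannot be told apart.

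The other NPF4 members added smaller or narrower differences. The NPF4.6 match Ebr03G069220 (chromosome 3, 571640465 to 571644458) had a log2 fold change of 0.73 ± 0.19 (SE) in HN vs MN with an adjusted p of 0.0386, which did not reach the fold threshold. Its highest group mean was 140.5 ± 37.7 FPKM in HN S1 leaves, against 85.1 ± 12.96 FPKM in MN S1 leaves. Ebr02G029470, another NPF4.5 match, and its neighbour, an NPF4.6 match added by the authors' assembly (chromosome 2, 260836185 to 260847220), were nearly confined to HN S3 libraries A and B, with 14.1 and 16.0 FPKM and with 4.15 and 5.01 FPKM, while replicate C had 0 and 0.3005 FPKM. In no other library did Ebr02G029470 exceed 0.677 FPKM or its neighbour 0.523 FPKM. The neighbour was called for any difference (adjusted p = 0.0322), a call lost without HN S2 replicate B (0.0615), HN S3 replicate A (0.118) or HN S3 replicate B (0.160). Ebr02G029470 was called for any difference too (adjusted p = 0.00610), in all 27 fits that left out 1 library (up to 0.0301) but not with close pairs summed (0.355). It was also called for S3 vs S1 (adjusted p = 0.0477), which was lost without any 1 of 23 libraries (up to 0.0987). The high values of both genes are those of 1 close pair.

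A member matching NPF2.7 and one matching NPF2.6 were called within the HN series, and 2 matching NPF2.3 in the averaged contrasts. NPF2.7 (NAXT1) is a nitrate exporter of Arabidopsis roots, and NPF2.3 has been described as moving nitrate toward the shoot in salt-treated roots. An assembled NPF2.7 match (chromosome 1, 228621706 to 228671383) measured 8.23, 10.7 and 5.17 FPKM in HN S3 libraries, against 0.0531, 0.114 and 0.0657 FPKM in HN S1 libraries, or 1204 against 10 counts. It was 1 of 3 members called among 61 tested for HN S3 vs S1 (adjusted p = 0.0140), where 2.2% of all genes were called (1.62% higher and 0.578% lower). The others were Ebr01G016020 (log2 fold change 3.77 ± 0.46, adjusted p = 0.0198) and the NPF2.6 match Ebr01G049870.

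Ebr01G049870 measured 2.31, 1.62 and 2.54 FPKM in HN S3 libraries, against 52.1, 62.5 and 8.28 FPKM in HN S1 libraries, and fell by 4.21 ± 0.74 on the log2 scale (adjusted p = 0.0421). It also fell by 2.94 ± 0.75 in S3 vs S1 over the treatments (adjusted p = 0.0382, lost without any 1 of 15 libraries, up to 0.0876). None of the 3 HN S3 vs S1 calls held with close pairs summed (0 members called, background 0.0%) or in all 6 fits that left out 1 library. The call of the NPF2.7 match was lost without HN S1 replicate B (adjusted p = 0.0514), HN S3 replicate A (0.0854) or HN S3 replicate B (0.116). Those of Ebr01G016020 and Ebr01G049870 were each lost without any 1 of 4 libraries, HN S1 replicate B, HN S3 replicate A and HN S3 replicate B being shared, with adjusted p up to 0.128 and 0.249. Without HN S1 replicate B, HN S3 replicate A or HN S3 replicate B 0 members were called, without HN S1 replicate A or C 6, and without HN S3 replicate C 9. DESeq2 called 22 members in this comparison (background 7.08%), and edgeR gave 23 at an unadjusted p below 0.05 (37.7% of members, against 20.5% of all genes).

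An assembled NPF2.3 match nearby (chromosome 1, 228866617 to 228879676) measured 5.52, 4.89 and 2.01 FPKM in HN S3 libraries, against 0.0181, 0.145 and 0 FPKM in MN S3 libraries, or 657 against 8 counts. It was called as higher for HN vs MN over the stages (adjusted p = 0.0416) and for S2 vs S1 (adjusted p = 0.0318), calls lost without any 1 of 16 and of 9 libraries (adjusted p up to 0.0794 and 0.0762). No counts were found in the 3 MN S1 libraries. From S1 to S2 its summed counts rose from 0 to 104 in MN and from 16 to 171 in HN libraries, but fell from 40 to 22 in LN libraries. Another NPF2.3 match, Ebr01G050030, fell in S2 vs S1 (adjusted p = 0.0495), with 35 counts over the 9 S2 libraries and 272 over the 9 S1 libraries, a call lost without any 1 of 21 libraries (adjusted p up to 0.123).

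Both called NPF8 members and 1 of the 5 called NPF5 members were called for S2 vs S1, and several members of these subfamilies match peptide carriers. NPF8.3 (PTR2) and NPF8.1 (PTR1) of Arabidopsis carry dipeptides and tripeptides. The NPF8.3 match Ebr03G038880 measured 2.63, 2.97 and 3.09 FPKM in LN, 1.96, 3.48 and 1.75 FPKM in MN and 2.46, 2.08 and 0.811 FPKM in HN libraries at S2, and between 0.498 and 1.31 FPKM in the S1 libraries. It rose by 1.31 ± 0.25 (log2, SE; adjusted p = 0.00222), and Ebr04G074460, another NPF8.3 match, rose by 2.26 ± 0.73 (adjusted p = 0.0371, lost without any 1 of 11 libraries, up to 0.0761). The neighbour Ebr03G038890 measured 2.43, 10.7 and 9.32 FPKM in HN S1 libraries, against 0.802, 0.633 and 0.604 FPKM in MN S1 libraries, but its adjusted p was 0.113 for that comparison and 0.0513 for any difference. The NPF8.1 match Ebr03G035970 was not called (adjusted p for any difference 0.212).

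In NPF5 the NPF5.2 match Ebr05G011160 measured 8.68, 21.65 and 4.08 FPKM in HN S1 libraries, against 2.41, 0.842 and 0.845 FPKM in MN S1 libraries. NPF5.2 (PTR3) is a peptide carrier induced by wounding in Arabidopsis. At S3 the order was the opposite in part, with 0.118, 0.579 and 2.66 FPKM in HN and 1.26, 2.45 and 1.06 FPKM in LN, against 9.84, 6.54 and 2.12 FPKM in MN libraries. The gene was called for any difference (adjusted p = 0.0359), lost without any 1 of 10 libraries (up to 0.136), and for none of the contrasts of 2 conditions. Another NPF5.2 match, Ebr04G021410, fell by 1.14 ± 0.25 in S2 vs S1 (adjusted p = 0.00475).

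The remaining NPF5 calls were all for any difference among the groups. They were the NPF5.1 match Ebr01G072430 (adjusted p = 0.0262), the NPF5.6 match Ebr06G000410 (0.0302) and the NPF5.4 match Ebr03G019950 (0.0446), lost without any 1 of 2, 4 and 21 libraries, with adjusted p up to 0.0667, 0.0705 and 0.124. Ebr01G072430 was lowest in HN S3 and LN S3 leaves, with 9.09, 10.6 and 22.3 FPKM and with 13.2, 17.52 and 15.8 FPKM, against 19.3, 49.1 and 41.6 FPKM in MN S3 libraries. The most abundant NPF5 gene, the NPF5.10 match Ebr04G055110, ranged from 26.9 to 77.0 FPKM and was not called (adjusted p for any difference 0.516). The same was true of the NPF1.1 match Ebr02G065380, which ranged from 15.4 to 38.2 FPKM (adjusted p = 0.735).

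Within single stages edgeR called no member for either treatment, also with close pairs summed where a comparison had any. At S1, LN vs MN gave 0 calls among 62 members (background 0.00918%), with 11 at an unadjusted p below 0.05 (17.7%, against 8.64% of all genes), and DESeq2 called 3 (background 2.05%). HN vs MN at S1 gave 0 among 58 (background 0.111%), with 15 at an unadjusted p below 0.05 (25.9%, against 9.31%), and DESeq2 called 7 (background 2.71%). Without HN S1 replicate A edgeR called 4 members for HN vs MN. The members with the smallest p at S1 were the NPF5.10 match Ebr03G063500 (higher) and the NPF4.5 match Ebr02G063270 (lower) for LN, and Ebr03G038890 (higher) and Ebr03G061500 (lower) for HN.

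At S2, LN vs MN gave 0 calls among 59 members (background 0.0%), with 9 at an unadjusted p below 0.05 (15.3%, against 13.3%), and DESeq2 called 4 (background 2.88%). HN vs MN at S2 gave 0 among 67 (background 0.018%), with 13 at an unadjusted p below 0.05 (19.4%, against 18.4%), and DESeq2 called 6 (background 4.57%). Without MN S2 replicate A edgeR called 2 for HN vs MN. Here Ebr0G011500 (higher) and Ebr05G002630 (lower) had the smallest p for LN, and Ebr02G041220 (higher) and Ebr05G002410 (lower) for HN.

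At S3, LN vs MN gave 0 calls among 57 members (background 0.0%), with 4 at an unadjusted p below 0.05 (7.02%, against 4.69%), and DESeq2 called 1 (background 0.56%). HN vs MN at S3 gave 0 among 61 (background 0.0%), with 12 at an unadjusted p below 0.05 (19.7%, against 20.3%), while DESeq2 called 15 (background 5.79%) and limma on log2(FPKM + 1) called 4 (background 1.59%). Without MN S3 replicate B edgeR called 3 and without HN S3 replicate C it called 2. Ebr02G041220 (higher) and Ebr03G061500 (lower) had the smallest p for LN, and Ebr01G016020 (higher) and Ebr0G011500 (lower) for HN. The comparison of S3 with S1 gave 0 calls among 61 members within LN and within MN (background 0.0% in each), with 5 and 8 at an unadjusted p below 0.05 (8.20% and 13.1%, against 7.31% and 8.24% of all genes). DESeq2 called 2 in each (background 1.64% within LN and 2.0% within MN).

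The share of members whose libraries did not overlap between groups stood above that of all genes at S1, close to it at S2 and below it at S3. At S1 it was 24.1% for HN vs MN (14 of 58, background 15.5%) and 22.6% for LN vs MN (14 of 62, background 15.8%). At S2 it was 25.4% for HN vs MN (17 of 67, background 26.4%) and 20.3% for LN vs MN (12 of 59, background 22.1%). Of the 17 HN members 15 were higher in HN. These were 15 of the 67 members tested, and 13.3% of all genes tested were higher in HN without overlap. At S3 it was 23.0% for HN vs MN (background 29.4%) and 5.26% for LN vs MN (background 11.5%). For S3 vs S1 it was 39.3% within HN (24 of 61, background 28.4%), 14.8% within LN (9 of 61, background 14.7%) and 16.4% within MN (10 of 61, background 14.9%). These shares had no test.

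Other genes of nitrate handling, 57 in all from lists formed by gene description, were called in larger shares than all genes in several tests. The lists held NRT2 carriers (14 genes), NRT3 partner proteins (7), chloride channels of the CLC family (23), SLAC and SLAH anion channels (6), nitrate reductase (2), nitrite reductase (1) and NLP transcription factors (4), and 25 of the 57 were tested. Any difference among the 9 groups was called for 11 of the 25 (44.0%, background 15.9%). For S3 vs S1 4 were called, all higher (16.0%, background 2.18%), and for S2 vs S1 2, both higher (8.0%, background 10.2%). For HN vs MN over the stages 1 was higher and 1 lower (8.0%, background 2.48%), for HN vs LN 1 was higher (4.0%, background 1.03%), and for LN vs MN 0 were called, with 4 at an unadjusted p below 0.05 and 1 called by DESeq2. With close pairs summed 0 of the 25 were called by edgeR in any of these tests. The gene of nitrite reductase, Ebr04G050620, which reduces nitrite to ammonium in the chloroplast, rose by 1.47 ± 0.32 (log2, SE) in HN vs MN (adjusted p = 0.0189) and by 1.66 ± 0.32 in HN vs LN (adjusted p = 0.0158), calls lost with close pairs summed (adjusted p = 0.260 and 0.348). The NRT2 gene Ebr03G055670 fell by 1.38 ± 0.37 in HN vs MN (adjusted p = 0.0424, and 0.310 with close pairs summed).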

How the data were processed

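The deposited count table (reads per gene) and FPKM table were made by the authors, whose processing notes name HISAT2 2.0.5, StringTie 1.3.3b and featureCounts 1.5.0-p3. The deposited FPKM are the counts divided by gene length and by 1 scaling value for each library. Members and gene lists were chosen with earlier results of these data known.

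Groups came from the deposited labels. Counts were tested in R 4.3.3 with edgeR 4.0.16 (TMM, filterByExpr defaults, quasi-likelihood F test, two-sided), on the 6 libraries of each comparison of 3 against 3, and on all 27 libraries for averaged contrasts, interaction and any difference. The SE was obtained from the fold change and its F statistic. The SD is over 3 libraries, and FPKM sums had no test. Alternatives were DESeq2 1.42.0, limma 3.58.1 on log2(FPKM + 1), RLE normalization, no filter, a replicate block, 1 fit for all libraries, no fold threshold, close pairs summed and each library left out. Scripts were tested on simulated data. Figures used Python 3.11.15 and matplotlib 3.10.9.

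Genes named in the text are 5 preset ones, those called by edgeR (those with the smallest p first), the highest of each subfamily, the smallest p per direction in each treatment comparison, and matches to NPF2.13, NPF6.2, NPF6.3, NPF7.2 and NPF7.3.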

Additional observations from a re-analysis of the deposited data

Results flagged for a closer look

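The NPF2.13 match Ebr03G061500 stood out because the difference between treatments itself differed between stages, with an edgeR adjusted p of 0.0228 for the treatment by stage interaction. With close pairs summed that test called 0 of all genes, so the loss is not particular to this member. The NPF3.1 match Ebr0G011500 stood out because every HN library lay above every MN library at S2 and below every MN library at S3. Its log2 fold change in HN vs MN at S2 minus that at S3 was 2.71, and this single difference was not tested. The interaction over all treatments and stages gave this gene an edgeR adjusted p of 0.0606.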

How the results depend on the processing

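The main limit is whether the close pairs are separate samples. With them summed, calls fell to 0 for HN S3 vs S1, LN vs MN, HN vs MN, HN vs LN, S3 vs S1, the interaction and any difference, and to 2 for S2 vs S1. Of all genes, 0 were then called for HN S3 vs S1, LN vs MN, HN vs MN, HN vs LN and the interaction. The share was 0.0203% for S3 vs S1, 0.0135% for any difference and 0.321% for S2 vs S1. These losses therefore do not set NPF members apart from other genes. DESeq2 gave more calls: 3, 4 and 1 for LN vs MN at S1, S2 and S3, 7, 6 and 15 for HN vs MN at those stages, 2, 2 and 22 for S3 vs S1 within LN, MN and HN, 2 for LN vs MN, 12 for HN vs MN, 8 for S3 vs S1, 9 for the interaction and 36 for any difference. limma on log2(FPKM + 1) called 4 for HN vs MN S3 (background 1.59%) and 7 for HN S3 vs S1 (4.63%). It called 8 for S2 vs S1 (6.51%) and 4 for the interaction (0.808%). Without the filter 2 were called for HN vs MN S1 (background 0.34%) and 7 for HN S3 vs S1 (2.11%). The 1 fit of all 27 libraries called 1 for HN vs MN S1 (0.192%). The causes were not tested.

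The replicate letters did not pair the samples (mean correlation of deviations 0.0238 for the same letter and -0.0118 for different letters), and a replicate block left 1 call for HN S3 vs S1 and 2 for HN vs LN. Leaving out 1 library gave 0 to 0 calls for LN vs MN at S1, S2 and S3 and for S3 vs S1 within LN and MN, 0 to 4 for HN vs MN S1, 0 to 2 for HN vs MN S2, 0 to 3 for HN vs MN S3, 0 to 9 for HN S3 vs S1, 0 to 1 for LN vs MN, 3 to 8 for HN vs MN, 1 to 6 for HN vs LN, 11 to 17 for S2 vs S1, 0 to 5 for S3 vs S1, 0 to 3 for the interaction and 11 to 32 for any difference. The 70 results on single genes had 2008 values under the alternatives, of which 1552 kept direction and side of the threshold, 440 lost the call, 16 gained it and 0 changed direction. Members with few counts are limited by depth.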
